A study of Mus musculus with 16 samples.

Results

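The Fox, Tbx, Dlx and Irx genes and the sine oculis homeobox family encode DNA-binding transcription factors, and the set described here holds the 75 protein-coding mouse genes whose symbols carry one of these family names. They were picked by symbol from the 46078 genes of the count tables, of which 45229 (98.2%) had a symbol in the GENCODE M21 annotation. The families were chosen with earlier results of these data known. The set comprised 44 Fox, 13 Tbx, 6 Dlx, 6 Irx and 6 sine oculis homeobox genes. RNA was sequenced in 16 libraries of mouse intestinal organoids, which are gut epithelial cells grown from crypts in a gel matrix, in a study of how Apc mutant cells act on wild type cells.

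Untreated mutant organoids (n = 2, day 2) carried Lgr5-EGFP-IRES-CreERT2 and Apc fl/fl alleles recombined in culture with 4OH-tamoxifen, together with a green Venus construct. Untreated wild type (WT) organoids (n = 2, day 2) carried Lgr5-EGFP-IRES-CreERT2 and a red mCherry construct, and the labels give the C57BL6 strain for both. The protocols also name Villin-CreERT2 Apc fl/fl mice as a source of crypts without saying for which libraries. The other 12 libraries came from organoids in conditioned medium, which had first bathed WT or Apc mutant cultures and then received fresh EGF, Noggin and R-spondin. Their titles read APCCM or WTCM (n = 3 each on day 2 and on day 4), with the genotype labels Apc mutant and WT, and one and the same treatment label, Apc mutant conditioned medium, stands on all 12. The names APCCM and WTCM are therefore used for these groups. Nothing in the labels says whether libraries of a group came from separate cultures, so p-values measure only the spread between libraries, which may be technical.

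Apc, the recombined gene, stood at 249 and 218 CPM (read counts scaled to the size of the library) in the untreated mutant, against 69.3 and 76.2 CPM in untreated WT, and at 237 to 281 CPM in all 12 conditioned medium libraries. Counts over the whole gene do not show whether its flanked part was removed. Notum, a secreted Wnt antagonist switched on by beta-catenin, had 258 and 312 CPM in the untreated mutant and 0.33 and 0.22 CPM in untreated WT, but only 0.29 to 0.75 CPM in APCCM and 0.14 to 1.03 CPM in WTCM. Nkd1, another such target, had 440 and 533 CPM in the untreated mutant against 1.80 and 1.31 CPM in untreated WT, and 1.17 to 2.17 CPM in APCCM against 3.36 to 4.72 CPM in WTCM. Axin2, also a Wnt target, had 672 and 777 CPM in the untreated mutant against 174 and 156 CPM in untreated WT. In conditioned medium Axin2 had 171 to 281 CPM in APCCM and 274 to 353 CPM in WTCM. The APCCM libraries thus did not show the Wnt target levels of the untreated mutant. A difference between APCCM and WTCM cannot be assigned to genotype or to medium source. The untreated libraries were also shallower, with 8325979 to 13027701 gene counts against 17986815 to 29152692 in conditioned medium, and 4.78 to 7.32% of their reads lay outside annotated features against 14.4 to 19.2%. Markers of epithelium, 8 genes, summed to 3516 to 3874 CPM in the untreated mutant, 5942 to 6558 CPM in untreated WT and 6542 to 7733 CPM in conditioned medium.

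As background, forkhead (Fox) proteins bind DNA through a winged-helix domain. Foxa proteins open chromatin in endoderm, Foxo proteins respond to insulin signalling, and Foxm1 drives genes of mitosis. T-box (Tbx) proteins and the homeodomain proteins of the Dlx, Irx and sine oculis families are best known as patterning factors of limb, heart, face, neural tube and sensory placodes. Tbx3 has also been linked to Wnt signalling in epithelia.

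Of the 75 genes, 24 had no count in any of the 16 libraries and 51 had at least 1 count. The edgeR filter on low counts kept 32 (21 Fox, 5 Tbx, 2 Dlx and 2 Irx genes, with Six4 and Six5), and the 19 others with counts stayed at or below 0.43 CPM in every library. A set of 18 genes stood at 1 CPM or more in all 4 untreated libraries, namely 16 Fox genes, Tbx3 and Six5, and the same number reached 1 CPM in all 12 conditioned medium libraries. Levels per kilobase of exon allow genes to be ranked. In the untreated mutant Foxa3 (31.7 CPM per kb), Foxa1 (30.7) and Foxp4 (19.1) led. In untreated WT the leaders were Foxp4 (23.0 CPM per kb), Foxa3 (19.0) and Foxk2 (17.2). In WTCM on day 2 Foxp4 (43.7 CPM per kb) and Foxa3 (31.9) were again in front.

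**Figure D1:**
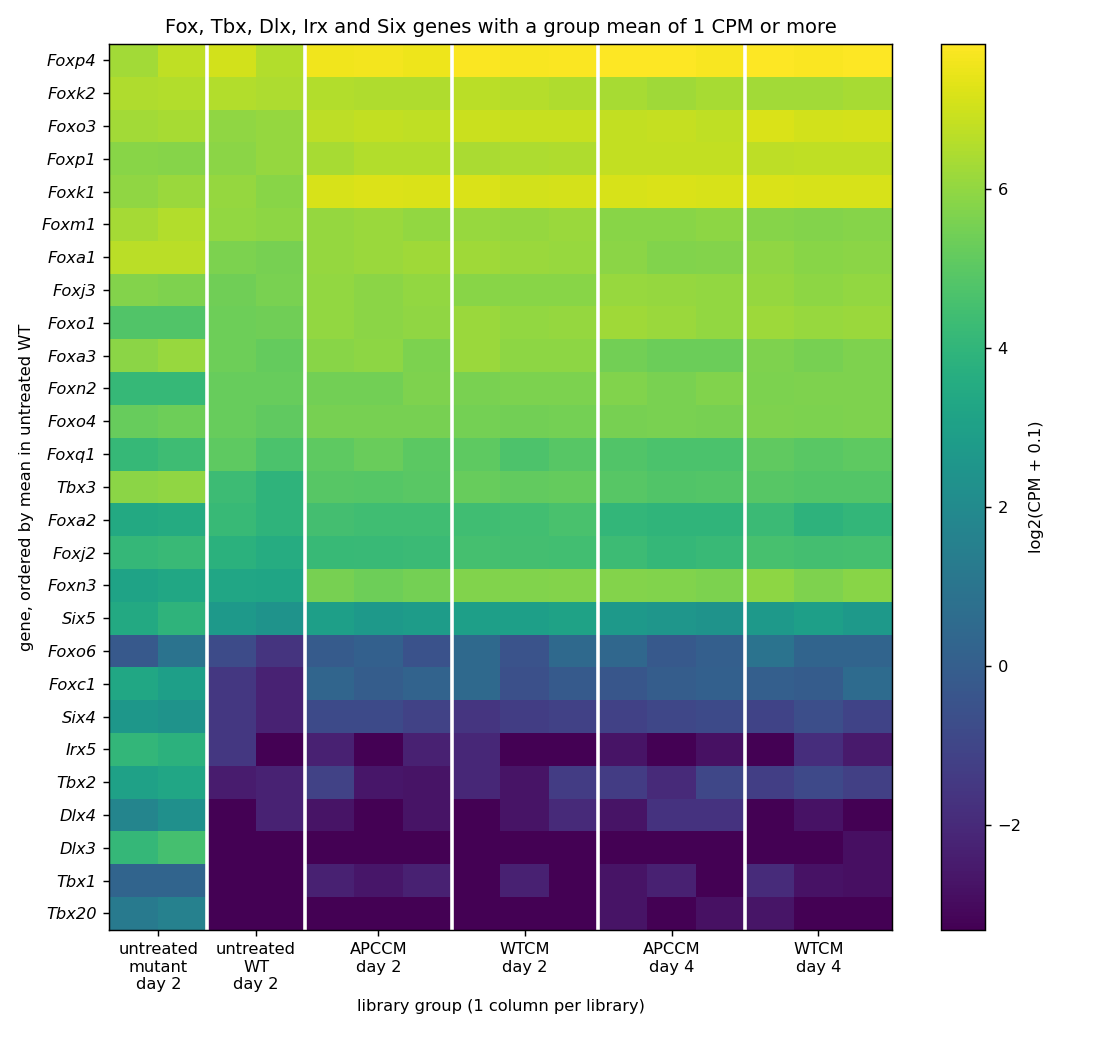
Level of each member with a group mean of 1 CPM or more, as log2(CPM + 0.1), with 1 row per gene ordered by its mean in untreated WT and 1 column per library in 6 groups. The upper 18 rows are filled in every library, and the 8 rows from Foxc1 to Tbx20 are bright in both untreated mutant libraries and dark in both untreated WT libraries.

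A gene was called gained in the untreated mutant where edgeR's quasi-likelihood test gave an adjusted p under 0.05, both mutant libraries had at least 1 CPM and both WT libraries had less, and lost in the reverse case. The rule found 8 gained members, Dlx3, Dlx4, Foxc1, Irx5, Six4, Tbx1, Tbx2 and Tbx20, and no lost member. Over all 16510 genes tested, 5.04% (832 genes) were gained and 3.83% (632 genes) were lost by the same rule. With a limit of 0.5 CPM there were 9 gained members, the added one being Foxo6, and with a limit of 2 CPM there were 7, without Tbx1. None was lost at any of these limits.

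For Foxc1, Six4, Tbx1 and Tbx20 a promoter window of 300 bases, from 250 before to 50 after the gene's start, was available from RefSeq (build GRCm38.p6). The 4 windows are shown because these genes were read in the untreated mutant and hardly at all in untreated WT, with CpG dinucleotides in capitals. The windows lie at chr13:31806396-31806695 (+ strand, Foxc1), chr12:73113376-73113675 (- strand, Six4), chr16:18590622-18590921 (- strand, Tbx1) and chr9:24774254-24774553 (- strand, Tbx20), each written 5′ to 3′ in the direction of its gene.
Foxc1: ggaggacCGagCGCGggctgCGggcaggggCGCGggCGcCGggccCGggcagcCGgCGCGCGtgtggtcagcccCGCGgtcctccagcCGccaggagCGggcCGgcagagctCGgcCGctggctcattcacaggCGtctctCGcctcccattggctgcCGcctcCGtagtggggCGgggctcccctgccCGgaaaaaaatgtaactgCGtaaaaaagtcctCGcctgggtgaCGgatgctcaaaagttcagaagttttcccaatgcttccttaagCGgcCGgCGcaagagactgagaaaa
Six4: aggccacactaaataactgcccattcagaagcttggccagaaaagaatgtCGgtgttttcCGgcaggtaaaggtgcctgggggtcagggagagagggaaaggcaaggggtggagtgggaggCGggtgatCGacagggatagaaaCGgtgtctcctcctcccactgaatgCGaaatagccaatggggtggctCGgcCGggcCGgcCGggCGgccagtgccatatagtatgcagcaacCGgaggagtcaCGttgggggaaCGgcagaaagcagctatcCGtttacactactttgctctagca
Tbx1: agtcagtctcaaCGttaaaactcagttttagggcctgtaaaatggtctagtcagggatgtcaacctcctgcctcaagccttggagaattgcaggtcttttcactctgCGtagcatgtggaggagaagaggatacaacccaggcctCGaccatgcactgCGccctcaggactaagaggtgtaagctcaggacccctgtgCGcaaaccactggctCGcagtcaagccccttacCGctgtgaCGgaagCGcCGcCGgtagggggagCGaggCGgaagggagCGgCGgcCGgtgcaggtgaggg
Tbx20: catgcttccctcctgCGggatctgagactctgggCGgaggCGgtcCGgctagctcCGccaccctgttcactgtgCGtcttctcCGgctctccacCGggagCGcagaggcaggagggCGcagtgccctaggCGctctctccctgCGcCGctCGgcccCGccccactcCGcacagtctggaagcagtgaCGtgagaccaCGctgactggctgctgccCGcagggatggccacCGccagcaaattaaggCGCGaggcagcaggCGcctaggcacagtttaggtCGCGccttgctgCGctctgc

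The Foxc1 window holds 32 CpG, the Tbx20 window 26, the Tbx1 window 16 and the Six4 window 15. The median was 7 over all 32851 windows of the table, 17 over the 47 members with a window, and 28.5 over the 12 genes with a window among those at 1 CPM or more in all untreated libraries. On either strand, none of the 4 windows holds CTTTGAT (a TCF/LEF motif, present in 3.73% of all windows), GTAAACA (forkhead, 3.65%), AGGTGTG (T-box, 5.84%) or TAATTA (homeodomain, 5.29%). Among the 47 members with a window, Foxa1 holds the forkhead letters, and Foxn1, Tbx19 and Tbx6 hold the homeodomain letters.

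Dlx3 and Dlx4 lie 15.2 kb apart on chromosome 11 (GRCm38, 95120119 to 95125296 and 95140447 to 95146263). Both encode homeodomain factors of the branchial arches, teeth, skin appendages and placenta. Dlx3 had 17.0 and 23.0 CPM in the untreated mutant, against no count in either untreated WT library, where the counting floor of 3 counts over the group is 0.140 CPM. Its level was therefore at least 144-fold higher in the mutant (adjusted p = 4.2e-11, edgeR). Of the 12 conditioned medium libraries only 1, of WTCM on day 4, had any Dlx3 count (0.04 CPM). Dlx4 had 3.26 and 4.71 CPM in the untreated mutant, against 0 and 0.11 CPM in untreated WT, a count ratio of 86.2 (95% interval 15.2 to 3433, counting error only) with adjusted p = 1.4e-07. In conditioned medium Dlx4 stayed at 0 to 0.21 CPM. The antisense gene Dlx4os, which overlaps Dlx4, averaged 0.51 CPM in the untreated mutant and 0 in each of the other 5 groups, and without a known strand setting their reads cannot be told apart. The other Dlx genes stayed at or near 0, since Dlx1 had at most 0.18 CPM in any library, Dlx6 had 1 count in all, and Dlx2 and Dlx5 averaged 0 in both untreated groups.

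Irx5 (chromosome 8, 92357625 to 92376286) encodes an Iroquois homeodomain factor of the retina, heart and limb. It had 16.6 and 14.4 CPM in the untreated mutant, against 0.25 and 0 CPM in untreated WT, a count ratio of 110 (95% interval 37.5 to 537, adjusted p = 2.9e-11, edgeR). All 12 conditioned medium libraries lay at or below 0.18 CPM. Irx3, 556 kb away on the same chromosome, had 0.69 and 0.43 CPM in the untreated mutant and 0.08 and 0.11 CPM in untreated WT (17 against 2 counts, a ratio of 5.91 with a 95% interval of 1.40 to 52.7, adjusted p = 0.031, edgeR). The Irx3 call was lost with DESeq2 and in a fit of only the groups compared. Irx6, 298 kb beyond Irx5, averaged 0 in both untreated groups. Of the members of the Irx family on chromosome 13, Irx1 averaged 0, Irx2 averaged 0 in the mutant and 0.18 CPM in WT, and Irx4 averaged 0.19 CPM in the mutant and 0.18 CPM in WT.

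Six4 (chromosome 12, 73099609 to 73113456) encodes a homeodomain factor of muscle and placode precursors that acts with Eya proteins. It had 5.96 and 5.26 CPM in the untreated mutant, against 0.25 and 0.11 CPM in untreated WT (log2 fold change 4.86, SE 0.42, adjusted p = 2.9e-10, edgeR). In conditioned medium it was low but not absent, at 0.34 to 0.46 CPM in APCCM and 0.23 to 0.54 CPM in WTCM. Six6 averaged 0 in both untreated groups.

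The T-box genes gained were Tbx1, Tbx2 and Tbx20. Tbx2 (chromosome 11, 85832551 to 85841948) encodes a transcriptional repressor that acts in heart and limb development. It had 8.32 and 9.73 CPM in the untreated mutant against 0.08 and 0.11 CPM in untreated WT (279 against 2 counts, a ratio of 97.0 with a 95% interval of 26.6 to 805, adjusted p = 2.4e-10, edgeR). It reached 0.45 CPM at most in conditioned medium. Tbx4, 44.5 kb from Tbx2, had 1 count in all. Tbx20 (chromosome 9, 24718138 to 24774303), a heart factor, had 2.29 and 2.88 CPM in the untreated mutant and no count in untreated WT, so it was at least 18.5-fold higher (adjusted p = 1.6e-06, edgeR). Tbx1 (chromosome 16, 18580979 to 18590671), a factor of the pharynx and heart outflow tract, had 1.11 and 1.10 CPM in the untreated mutant and no count in untreated WT, so it was at least 7.88-fold higher (adjusted p = 9.1e-05, edgeR). Tbx1 is the member just inside the limit, and Foxo6, with 0.76 and 1.77 CPM in the mutant against 0.49 and 0.22 CPM in WT, is the called member just outside it.

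Foxc1 (chromosome 13, 31806633 to 31812476), a forkhead factor of mesoderm, eye and neural crest, had 9.77 and 7.83 CPM in the untreated mutant against 0.25 and 0.11 CPM in untreated WT (log2 fold change 5.51, SE 0.46, adjusted p = 1.1e-10, edgeR). It differed from the other gained genes in its level in conditioned medium, where it stood at 0.68 to 1.13 CPM in APCCM and 0.56 to 1.40 CPM in WTCM. The nearby Foxf2 averaged 0 in both untreated groups. The related Foxc2 on chromosome 8 had 17 counts in the untreated mutant and none in untreated WT (at least 3.94-fold higher, adjusted p = 0.0035, edgeR). The Foxc2 call was lost with DESeq2 and in a fit of only the groups compared. Beside Foxc2, Foxl1 had 12 counts in the mutant and none in WT and was not tested, and Foxf1 had 1 count in the mutant.

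**Figure D2:**
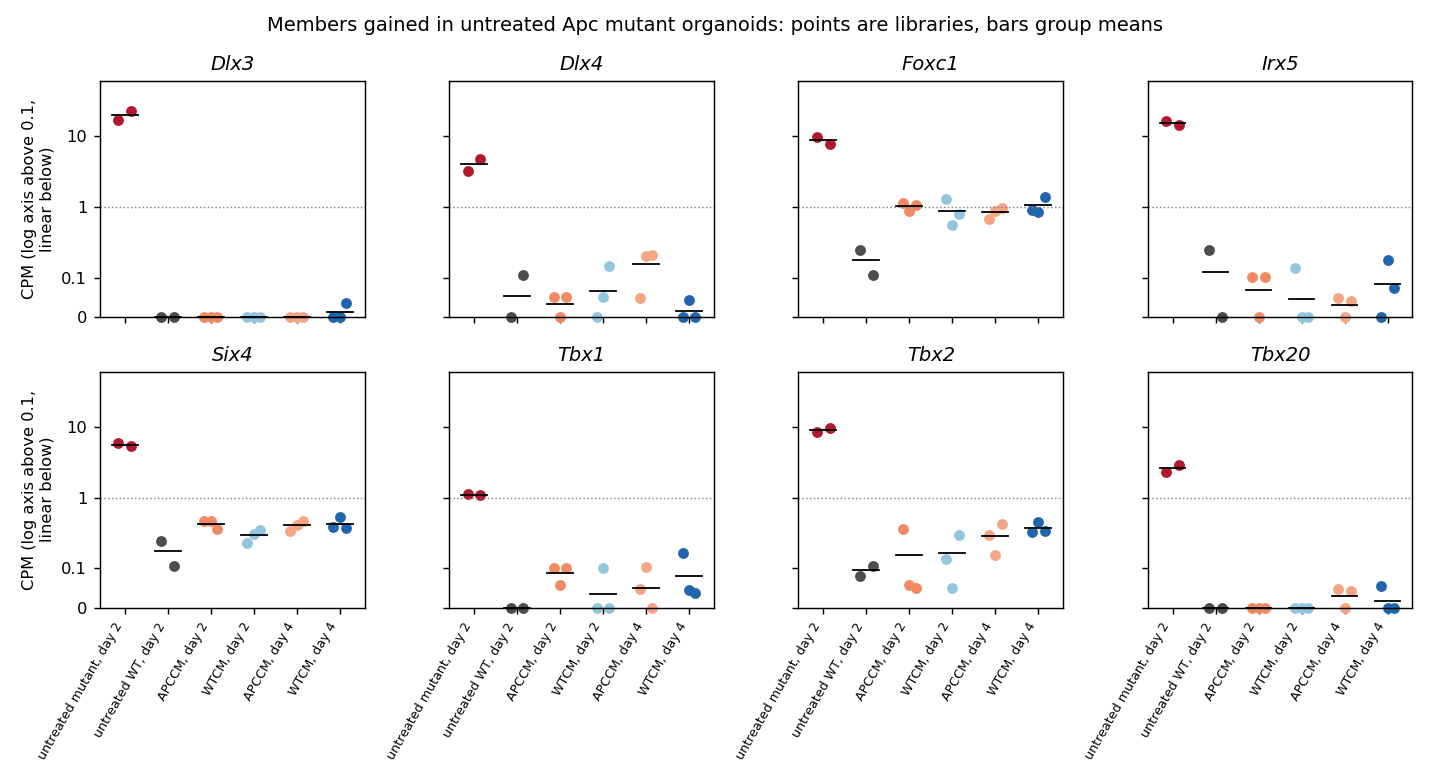
CPM of the 8 gained members in every library (points, with a bar for the group mean), on an axis that is logarithmic above 0.1 CPM and linear below, with a dotted line at 1 CPM. Both untreated mutant libraries lie above the line for all 8 genes. Foxc1 is the gene whose conditioned medium libraries lie around the line.

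The levels were also read against genes next to them. Of the 9 tested genes within 250 kb of Dlx3, 8 were higher and 1 was lower in the untreated mutant. They included Dlx4, Samd14 (4.76 CPM in the mutant and 0.93 CPM in WT), Fam117a (15.4 and 6.24 CPM in the same groups), and Tac4 (1.32 CPM in the mutant and 0 in WT), a tachykinin precursor gene. Pdk2 was the gene that fell, with 31.1 CPM in the mutant and 45.3 CPM in WT (log2 fold change -0.54, adjusted p = 5.6e-06, edgeR). Of 11 tested genes near Tbx1, 4 were higher and 4 lower, and of 3 near Six4, 2 were higher. Each gene was then counted once, with the gained members themselves left out. Of the 24 tested neighbours, 13 were higher and 6 lower, where 32.4% of all genes were higher and 30.1% lower. Most of the higher ones lay near both Dlx3 and Dlx4. A neighbour near 0 in WT, such as Tac4, may have entered the test only through its mutant libraries. This count is therefore no measure of the neighbourhoods.

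Col1a1, a collagen gene of fibroblasts, is also a neighbour of Dlx3 and averaged 0.64 CPM in the mutant and 0.05 CPM in WT. The 12 fibroblast and stromal markers, of which it is one, summed to 2.01 and 3.00 CPM in the untreated mutant libraries and to 1.31 CPM in both untreated WT libraries, and Col1a2, Col3a1, Dcn, Lum and Gli1 had no count in any of these 4 libraries. The 12 immune markers summed to 6.10 to 7.89 CPM in the untreated mutant and 3.43 to 3.60 CPM in untreated WT, most of it Cd68 in the mutant. The 6 endothelial markers summed to 0.92 to 0.97 CPM in the mutant and 1.06 to 1.42 CPM in WT, and the 7 neural and glial markers to 5.96 to 6.36 CPM in the mutant and 7.64 to 8.34 CPM in WT. The part of other cell types in the gained levels was not tested.

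Over all 32 tested members, 26 were called between untreated mutant and untreated WT, 21 higher and 5 lower, where 62.5% of all genes were called, 32.4% higher and 30.1% lower (5348 and 4971 genes, against 6553 and 3900 with total-count scaling, an alternative that shifted the median of all genes by 0.168 on the log2 scale). A gene near 0 in WT entered the test only through its mutant libraries, so this count is no measure of the families. By family, 10 of 21 Fox genes were higher and 5 lower, and all 5 Tbx, both Dlx and both Irx genes tested, and Six4 and Six5, were higher. Among the 18 members at 1 CPM or more in all 4 untreated libraries, 8 were higher and 5 lower, where 35.1% of the 11443 genes that met the same condition were higher and 33.9% lower. Their median log2 fold change was 0.12, and that of the 11443 genes 0.01. In bulk RNA fewer cells of a type and less RNA per cell cannot be told apart.

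Tbx3 was the established member with the largest rise. It had 59.1 and 63.0 CPM in the untreated mutant against 19.9 and 15.1 CPM in untreated WT (log2 fold change 1.78, SE 0.10, adjusted p = 4.4e-14, edgeR). Both mutant libraries lay above all other libraries, and no conditioned medium library passed 37.8 CPM. Six5, a homeodomain factor next to the myotonic dystrophy gene in mammals, had 10.7 and 14.9 CPM in the mutant against 6.29 and 5.13 CPM in WT (log2 fold change 1.15, SE 0.18, adjusted p = 4.6e-06, edgeR). Tbx6, a mesoderm factor and the remaining T-box gene tested, was called higher at a level below 0.5 CPM. It had 0.35 and 0.43 CPM in the mutant against 0.08 and 0 CPM in WT (12 against 1 counts, adjusted p = 0.015, edgeR). The Tbx6 call was lost with DESeq2 and in a fit of only the groups compared.

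The Foxa genes, pioneer factors of endoderm, split. Foxa1 had 102 and 103 CPM in the untreated mutant against 49.5 and 46.5 CPM in untreated WT (log2 fold change 1.09, SE 0.08, adjusted p = 1.3e-11, edgeR). Foxa3 had 59.8 and 69.5 CPM in the mutant against 41.2 and 36.2 CPM in WT (log2 fold change 0.74, SE 0.10, adjusted p = 1.3e-06, edgeR). Foxa2 went the other way, with 10.7 and 11.5 CPM in the mutant against 18.4 and 15.3 CPM in WT (log2 fold change -0.61, SE 0.14, adjusted p = 0.0005, edgeR). Groups did not overlap for any of the 3 genes. The same held for Foxo4 and Foxp1, which were not called, and the share of all genes without overlap was not counted. The 8 enteroendocrine markers are genes of the hormone cells in which Foxa factors also act. They summed to 46.6 to 47.6 CPM in the untreated mutant and 354 to 357 CPM in untreated WT. Most of the WT sum was Chgb (279 and 288 CPM in WT, 3.60 and 3.98 CPM in the mutant). Isl1 alone went the other way, with 26.1 and 23.2 CPM in the mutant against 1.39 and 1.42 CPM in WT. The part of these cells in the lower Foxa2 level was not tested.

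The Foxo genes, which carry the nuclear response to low insulin signalling, also moved apart. Foxo1 had 27.8 and 27.4 CPM in the untreated mutant against 41.0 and 42.8 CPM in untreated WT (log2 fold change -0.60, SE 0.08, adjusted p = 1.1e-06, edgeR). Foxo3 had 78.8 and 81.4 CPM in the mutant against 62.0 and 66.1 CPM in WT (log2 fold change 0.33, SE 0.07, adjusted p = 0.00016, edgeR), and Foxo4 differed by 0.14 on the log2 scale (SE 0.07, adjusted p = 0.097). Foxo6 was called higher (log2 fold change 1.78, SE 0.61, adjusted p = 0.014, edgeR), but without mutant replicate 5 the change was 1.02 with adjusted p = 0.26, and without WT replicate 5 it was 1.38 with adjusted p = 0.097.

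Foxn2 had the largest fall of the set, with 17.9 and 17.5 CPM in the untreated mutant against 37.0 and 37.6 CPM in untreated WT (log2 fold change -1.08, SE 0.09, adjusted p = 1.1e-10, edgeR). Its relative Foxn3, a checkpoint-linked repressor, did not pass the test, at 8.80 and 10.03 CPM in the mutant against 9.73 and 9.27 CPM in WT. Foxq1, an epithelial forkhead factor, had 17.9 and 20.6 CPM in the mutant against 32.9 and 25.5 CPM in WT (log2 fold change -0.61, SE 0.13, adjusted p = 0.00023, edgeR). Its transcript shares 65.7% of its 50-base words with another gene, and it overlaps A530084C06Rik on the opposite strand, so its count is uncertain. Foxp4, a partner of Foxp1 in gut and lung epithelium, had 78.1 and 110 CPM in the mutant against 133 and 94.1 CPM in WT, and the groups overlapped. Its call (log2 fold change -0.27, adjusted p = 0.046, edgeR) was lost without WT replicate 4, where the difference was 0.0008, and without mutant replicate 4, where it was -0.05.

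Foxm1, a driver of mitotic genes, had 80.5 and 92.8 CPM in the untreated mutant against 64.7 and 60.2 CPM in untreated WT (log2 fold change 0.47, SE 0.07, adjusted p = 6.3e-06, edgeR). Smaller rises were called for Foxj2 (log2 fold change 0.47, SE 0.11, adjusted p = 0.0009) and Foxj3 (0.24, SE 0.08, adjusted p = 0.0086), forkhead factors of wide expression. The Foxj3 call was lost without WT replicate 4 (adjusted p = 0.18) and without mutant replicate 4 (0.059). Foxk1, Foxk2 and Foxp1 were not called, with log2 fold changes of 0.09, 0.01 and -0.15. Foxj1, the factor of motile cilia, had 14 counts in the mutant and 1 in WT (adjusted p = 0.035, edgeR). The Foxj1 call was lost in all 4 fits without 1 library. It was also lost with DESeq2, in a fit of only the groups compared and with the replicate block.

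**Figure D3:**
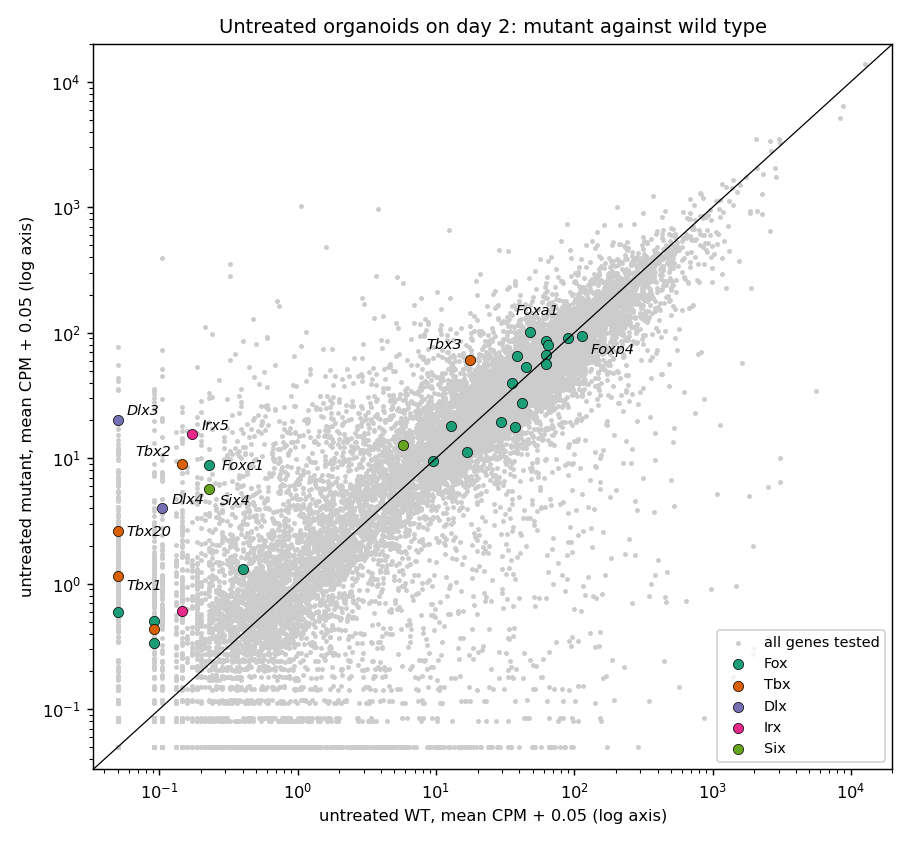
Mean CPM + 0.05 of each tested gene in the 2 untreated mutant libraries (vertical, log axis) against the 2 untreated WT libraries (horizontal, log axis), with members coloured by family, other genes in grey and the line of equality. The gained members stand at the left edge above the line, and the well expressed Fox genes lie on either side of it.

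Partners and targets of these factors were read from lists of known genes, which were chosen with earlier results of these data known. The list counts stand against 62.5% of all genes called in this comparison, 32.4% higher and 30.1% lower. Of 7 Eya, Dach and Sobp genes, cofactors of sine oculis homeobox proteins, 4 were tested, and 3 of the 4 were higher and none lower in the untreated mutant (median log2 fold change 3.18, against 0 over all genes). Eya2 averaged 6.73 ± 0.60 CPM in the mutant and 0.18 ± 0.10 CPM in WT (SD, n = 2 each). Dach2 averaged 10.4 ± 0.64 CPM in the mutant and 0.50 ± 0.10 CPM in WT, and Dach1 125 ± 10.2 CPM in the mutant and 30.3 ± 4.22 CPM in WT. Eya2 had 208 counts in the untreated mutant, 4 in untreated WT and at most 2 in any conditioned medium group. It entered the test only through its mutant libraries, so the count and median of these 4 genes are no measure of the list. Genes of the other lists that were near 0 outside the mutant share this limit. Among the 6 Tle and Aes corepressors, which several of these factors recruit, 2 were higher (Tle3 and Tle1) and 2 lower (Tle4 and Tle6). Tle3 averaged 118 ± 16.1 CPM in the mutant and 40.7 ± 7.74 CPM in WT (log2 fold change 1.52).

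Of 48 other homeobox and related patterning factors of limb, mesoderm and placodes, 19 were tested. Of these, 10 were higher and 7 lower (median log2 fold change 0.55, against 0), where 32.4% of all genes were higher and 30.1% lower. Prox1, a homeodomain factor of lymphatic and neural cells, averaged 968 ± 61.9 CPM in the mutant and 3.74 ± 0.96 CPM in WT. Msx1 averaged 12.3 ± 1.76 CPM in the mutant and 0.35 ± 0.27 CPM in WT, while Barx2 averaged 0.20 ± 0.11 CPM in the mutant and 18.4 ± 0.30 CPM in WT. Of 15 other endoderm and gut factors, 13 were tested, with 4 higher and 9 lower (median log2 fold change -0.79, against 0). Hnf4g averaged 18.4 ± 0.88 CPM in the mutant and 173 ± 13.3 CPM in WT, and Onecut2 averaged 0.65 ± 0.03 CPM in the mutant and 262 ± 12.5 CPM in WT. Pdx1 had no count in the mutant and averaged 39.7 ± 5.29 CPM in WT, and Isx averaged 123 ± 2.80 CPM in the mutant and 46.8 ± 2.35 CPM in WT.

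Each of the target lists held genes called in both directions, where 62.5% of all genes were called (32.4% higher, 30.1% lower). Of 22 FoxO target and control genes, 9 were higher and 5 lower (median log2 fold change 0.20, against 0), with Trp53inp1 at 271 ± 34.9 CPM in the mutant and 46.6 ± 2.25 CPM in WT, and Cat at 83.4 ± 4.00 CPM in the mutant and 282 ± 1.92 CPM in WT. Of 16 Foxm1 target genes of G2 and M phase, 3 were higher and 3 lower (median -0.04). Birc5 averaged 51.4 ± 0.58 CPM in the mutant and 85.8 ± 1.60 CPM in WT, and Cdc25b averaged 87.9 ± 3.09 CPM in the mutant and 64.0 ± 2.21 CPM in WT. Of 17 Foxj1 target genes of motile cilia, 15 were in the count tables and 9 tested, with 4 higher and 2 lower (median 0.98), among them Cfap43 at 13.1 ± 1.05 CPM in the mutant and 3.56 ± 0.87 CPM in WT.

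In conditioned medium no member was gained or lost between APCCM and WTCM. On day 2, 5 of 32 tested members were lower in APCCM and none was higher, where 16.7% of all genes were called (8.54% higher, 8.15% lower). Tbx3 had 30.9, 29.4 and 31.4 CPM in APCCM against 37.8, 35.0 and 36.2 CPM in WTCM (log2 fold change -0.25, SE 0.07, adjusted p = 0.017, edgeR), opposite in sign to its rise in the untreated mutant. Foxn3 had 46.5, 41.7 and 45.1 CPM in APCCM against 52.4, 52.5 and 54.7 CPM in WTCM (log2 fold change -0.26, SE 0.07, adjusted p = 0.0075, edgeR). Foxj2 averaged 18.7 ± 0.52 CPM in APCCM and 22.2 ± 0.61 CPM in WTCM, Foxo3 averaged 107 ± 2.89 CPM in APCCM and 119 ± 3.08 CPM in WTCM, and Foxa3 averaged 55.8 ± 5.58 CPM in APCCM and 65.0 ± 5.80 CPM in WTCM (SD, n = 3 each). Leaving out 1 library left 1 to 4 lower members, with 1 without WTCM replicate 1, 2 without WTCM replicate 2 or APCCM replicates 1 or 3, and 3 without APCCM replicate 2.

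On day 4, 4 members were lower in APCCM and none higher, where 15.6% of all genes were called (7.83% higher, 7.80% lower). Foxo3 showed the firmest difference, with 111, 114 and 109 CPM in APCCM against 147, 136 and 136 CPM in WTCM (log2 fold change -0.33, SE 0.05, adjusted p = 3.7e-05, edgeR). Foxj2 had 19.9, 17.3 and 18.9 CPM in APCCM against 23.7, 22.2 and 23.4 CPM in WTCM (log2 fold change -0.30, SE 0.08, adjusted p = 0.0064, edgeR). Foxa3 averaged 41.2 ± 2.72 CPM in APCCM and 49.5 ± 2.43 CPM in WTCM (log2 fold change -0.27, adjusted p = 0.022, edgeR), and Foxq1 averaged 26.4 ± 1.42 CPM in APCCM and 32.8 ± 1.82 CPM in WTCM (log2 fold change -0.31, adjusted p = 0.020, edgeR). Foxa3, Foxj2 and Foxo3 were called lower in APCCM on both days, but their day 2 calls lay near the threshold (adjusted p = 0.048 for Foxa3, 0.028 for Foxj2 and 0.039 for Foxo3, edgeR). The day 2 call was lost in 4 of the 6 fits without 1 library for Foxa3, and in 5 of 6 for Foxj2 and for Foxo3. The day 4 call was also lost in 4 of 6 such fits for Foxa3 and for Foxq1. It was lost in 1 of 6 for Foxj2 and in 0 of 6 for Foxo3. Tbx3 averaged 29.0 ± 1.37 CPM in APCCM and 29.2 ± 1.17 CPM in WTCM on day 4 and was not called. Leaving out 1 library left 1 to 5 lower members, with the lowest count without APCCM replicate 2 and a count of 2 without APCCM replicate 3, WTCM replicate 1 or WTCM replicate 3. WTCM day 4 replicate 1 stood apart from its group. Chi-square per degree of freedom, a measure of how far 2 libraries differ, was 39.9 and 42.2 against replicates 2 and 3. Between replicates 2 and 3 it was 5.72. Without replicate 1 the Foxa3 and Foxq1 calls were lost, and those of Foxj2 and Foxo3 were kept.

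**Figure D4:**
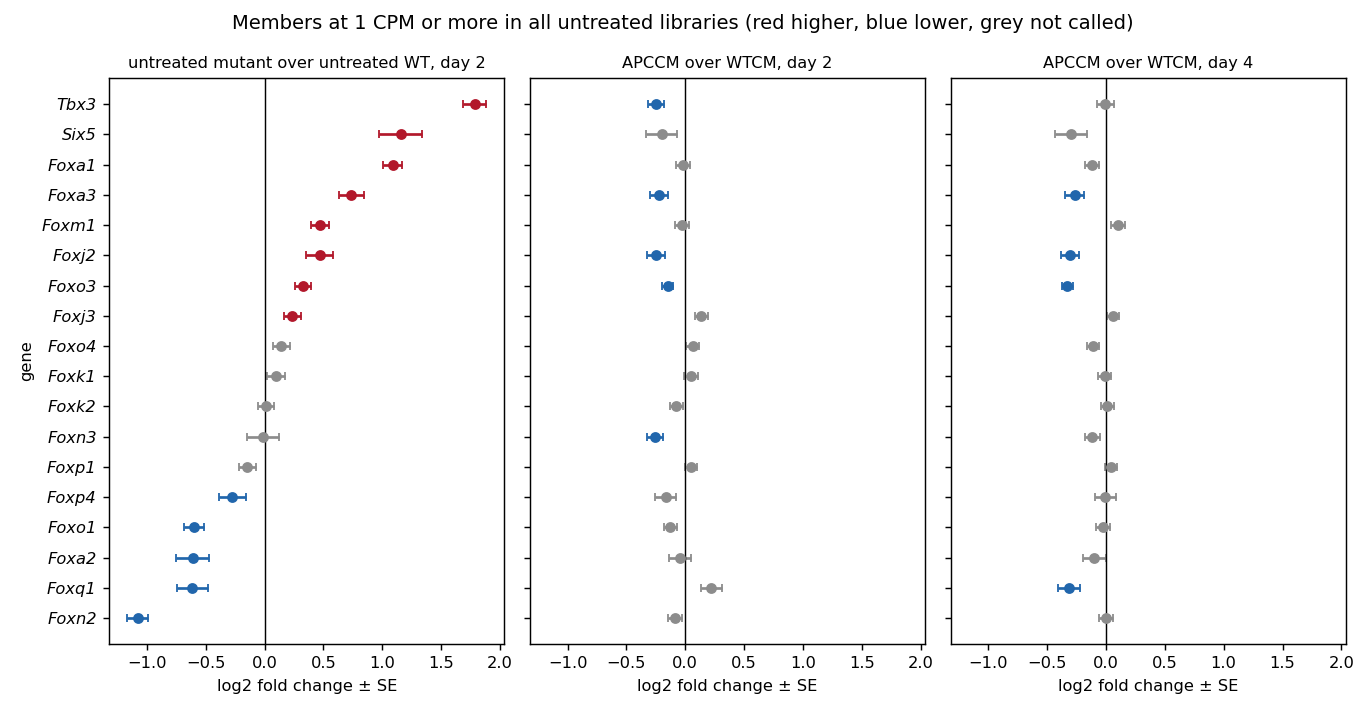
Log2 fold change with its SE of the 18 members at 1 CPM or more in all untreated libraries, for the untreated mutant over untreated WT and for APCCM over WTCM on day 2 and on day 4. Red points were called higher, blue points lower and grey points were not called. Tbx3, Foxa3, Foxj2 and Foxo3 are red in the untreated comparison and blue in at least 1 conditioned medium comparison.

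The lists of partners and targets were counted between APCCM and WTCM in the same way, where 16.7% of all genes were called on day 2 and 15.6% on day 4. None of the 4 tested Eya and Dach genes was called on day 2, and Dach1 was lower on day 4 (40.6 CPM in APCCM and 54.2 CPM in WTCM). Tle1 and Tle4 were lower in APCCM on both days. Of 13 endoderm factors, 1 was higher and 5 lower on day 2, and 2 were higher and 1 lower on day 4. The one with the largest change was Isx, an intestinal homeodomain factor, at 109 CPM in APCCM and 31.5 CPM in WTCM on day 2, and 104 CPM in APCCM and 21.0 CPM in WTCM on day 4. Of 19 limb, mesoderm and placode factors, 2 were higher and 1 lower on day 2, and 2 were higher and 3 lower on day 4, and Lmx1a was higher on both days. FoxO target and control genes counted 4 higher and 4 lower of 22 on day 2 and 0 higher and 6 lower on day 4, among them Sesn3 and Bnip3, which were lower on both days. Foxm1 targets counted 2 higher of 16 on day 2 and 4 on day 4, and none of the 9 tested Foxj1 targets was called on either day.

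Between day 4 and day 2 the Foxa genes fell under both labels. In APCCM, 3 members were higher and 6 lower on day 4, where 23.9% of all genes were called (12.2% higher, 11.7% lower). In WTCM, 5 were higher and 6 lower, where 24.1% of all genes were called (12.5% higher, 11.6% lower). Foxa2 had 16.4, 15.4 and 15.6 CPM on day 4 against 22.8, 21.3 and 21.4 CPM on day 2 in APCCM (log2 fold change -0.46, SE 0.09, adjusted p = 0.00076, edgeR), and 19.5, 14.7 and 16.8 CPM on day 4 against 21.1, 21.7 and 24.7 CPM on day 2 in WTCM (-0.41, SE 0.09, adjusted p = 0.0022). Foxa3 fell by 0.44 in APCCM and by 0.39 in WTCM on the log2 scale, and Foxa1 fell by 0.35 in APCCM and by 0.25 in WTCM. Day 4 and day 2 ranges did not overlap for these genes under either label. The same held for Six5, which was not called under either label, and the share of all genes without overlap was not counted.

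Foxp1, a forkhead repressor of epithelial and immune cells, rose under both labels. It had 111, 113 and 110 CPM on day 4 against 83.2, 94.4 and 94.3 CPM on day 2 in APCCM (log2 fold change 0.30, SE 0.05, adjusted p = 0.00022, edgeR), and 106, 110 and 108 CPM on day 4 against 86.2, 87.3 and 89.2 CPM on day 2 in WTCM (0.30, SE 0.05, adjusted p = 0.00021). Foxk2 fell by 0.20 in APCCM and by 0.29 in WTCM. Foxn3 and Foxo1 were called higher in APCCM (log2 fold changes 0.22 and 0.17). Foxo3, Foxo4, Foxj3 and Irx3 were called higher in WTCM (0.23, 0.18, 0.16 and 2.54), with Irx3 at 0.18 to 0.33 CPM on day 4 and 0 to 0.10 CPM on day 2 (15 against 2 counts, a ratio of 6.79 with a 95% interval of 1.58 to 61.2, adjusted p = 0.046, edgeR). The Foxo1 call in APCCM was lost in 5 of the 6 fits without 1 library, as were the Foxj3 and Irx3 calls in WTCM. The Irx3 call was also lost with DESeq2. The Foxn3 call in APCCM and the Foxo4 call in WTCM were each lost in 2 of 6 such fits. Tbx3 fell by 0.32 in WTCM (adjusted p = 0.0017, edgeR). Without 1 library, APCCM had 1 to 3 higher members, and the count was 1 without day 2 replicate 2 or day 4 replicate 1. WTCM had 2 to 4, and the count was 2 without day 4 replicate 1 or replicate 3 and 3 without day 2 replicate 1 or replicate 3.

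Foxm1 and most of its listed target genes were lower on day 4 under both labels. Foxm1 had 56.8, 58.1 and 61.4 CPM on day 4 against 67.5, 70.4 and 64.1 CPM on day 2 in APCCM (log2 fold change -0.19, SE 0.06, adjusted p = 0.017, edgeR), and 55.5, 53.8 and 55.1 CPM on day 4 against 69.2, 65.8 and 70.6 CPM on day 2 in WTCM (-0.32, SE 0.06, adjusted p = 0.00025). Of the 16 Foxm1 targets, 14 were lower on day 4 in APCCM, where 11.7% of all genes were lower. Their median log2 fold change was -0.29, against 0 over all genes. In WTCM all 16 were lower (median -0.34, against 0.004), where 11.6% of all genes were lower. A link between the Foxm1 level and these genes was not tested. Plk1, a mitotic kinase, averaged 76.7 ± 1.25 CPM on day 4 and 107 ± 6.43 CPM on day 2 in APCCM, and 74.5 ± 2.51 CPM on day 4 and 106 ± 4.69 CPM on day 2 in WTCM. Aurka, another mitotic kinase, averaged 37.0 ± 2.62 CPM on day 4 and 52.7 ± 2.53 CPM on day 2 in APCCM. The Foxm1 call in APCCM was lost without day 2 replicate 2 (adjusted p = 0.080), day 4 replicate 1 (0.078) or day 4 replicate 2 (0.055).

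The other lists were read against the 23.9% of all genes called in APCCM and the 24.1% called in WTCM. FoxO target and control genes counted 8 higher and 4 lower of 22 in APCCM and 9 higher and 3 lower in WTCM, with Txnip at 983 CPM on day 4 and 699 CPM on day 2 in APCCM, and 1021 CPM on day 4 and 551 CPM on day 2 in WTCM. Of 13 endoderm factors, 5 were higher and none lower in APCCM, and 3 were higher and 6 lower in WTCM. Eya3 was lower on day 4 under both labels. Of 6 Tle and Aes genes, 3 were lower in APCCM and 1 in WTCM, and Tle1 was among them under both labels. Limb, mesoderm and placode factors counted 3 higher in APCCM and 4 in WTCM of 19, with none lower, and Foxj1 targets 1 and 2 of 9 in the same order, Dnah5 being higher under both labels.

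**Figure D5:**
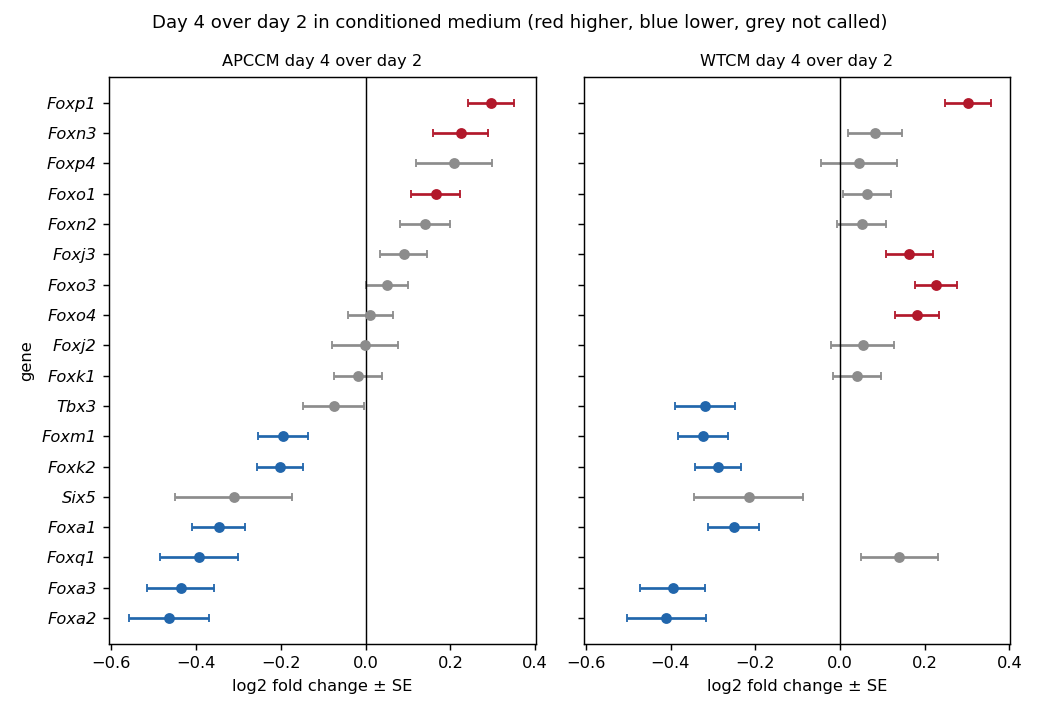
Log2 fold change with its SE of day 4 over day 2 in conditioned medium for the 18 members at 1 CPM or more in all untreated libraries, in APCCM and in WTCM. Red points were called higher, blue lower and grey not called. Foxa1, Foxa2, Foxa3, Foxk2 and Foxm1 are blue and Foxp1 is red in both panels.

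The differences between comparisons were tested as interactions. Foxq1 was the only member whose APCCM over WTCM difference changed with the day (-0.53 on the log2 scale, SE 0.13, adjusted p = 0.025, edgeR), where 2.13% of all genes were called (0.884% higher, 1.24% lower). It had 28.0, 25.5 and 25.7 CPM in APCCM against 34.6, 30.9 and 33.0 CPM in WTCM on day 4, and 33.2, 38.6 and 32.3 CPM in APCCM against 32.9, 25.9 and 30.4 CPM in WTCM on day 2. The call was lost without any 1 of 6 libraries (APCCM day 2 replicate 2, APCCM day 4 replicates 2 and 3, WTCM day 2 replicate 2 and WTCM day 4 replicates 1 and 3), with adjusted p from 0.053 to 0.091.

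The untreated mutant over WT difference was set against the APCCM over WTCM difference on day 2, and 18 of 32 members were called, 14 higher and 4 lower, where 53.1% of all genes were called (26.4% higher, 26.7% lower). Tbx3 differed by 2.03 (SE 0.12), Six5 by 1.35 (SE 0.22), Foxa1 by 1.11 (SE 0.10) and Foxa3 by 0.96 (SE 0.13) on the log2 scale. Foxn2 differed by -0.99 (SE 0.11), Foxq1 by -0.84 (SE 0.16), Foxa2 by -0.57 (SE 0.17) and Foxo1 by -0.47 (SE 0.10). Foxc1 and Six4 differed by 5.31 (SE 0.61) and 4.34 (SE 0.67). The untreated libraries all carry replicate numbers 4 and 5 and had a lower share of reads outside annotated features, so medium and these differences between the libraries cannot be told apart.

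Levels of some members differed between untreated and conditioned medium libraries far more than between labels. Foxn3 averaged 9.42 ± 0.87 CPM in the untreated mutant and 9.50 ± 0.32 CPM in untreated WT, and 44.4 ± 2.45 CPM in APCCM and 53.2 ± 1.31 CPM in WTCM on day 2. Foxk1 averaged 66.9 ± 6.93 CPM in the untreated mutant and 62.5 ± 6.57 CPM in untreated WT, and 145 ± 4.82 CPM in APCCM and 140 ± 5.49 CPM in WTCM on day 2. Genes annotated inside Foxp1 moved with this split, as Gm20705, a sense intronic RNA, averaged 0.03 CPM in the untreated mutant and 0 in untreated WT, and 3.12 CPM in APCCM and 2.20 CPM in WTCM on day 2. No direct test of untreated against conditioned medium libraries was made. Medium and the other differences between these libraries cannot be told apart here either.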

How the data were processed

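RNA-seq of 16 mouse intestinal organoid libraries in 6 groups was used. The authors deposited, for each library, raw whole-number read counts of 46078 genes. The tools were HTSeq 0.6.1p1, HISAT2 2.1.0 and Trimmomatic 0.36 with build GRCm38, per the submitters' processing notes. The sources used here do not state strand setting or annotation release. The 5 summary lines were left out. They hold reads with several alignments (26.5 to 38.9% of reads), so members with shared sequence can be undercounted.

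Counts were fitted once over 6 groups with edgeR 4.0.16 (quasi-likelihood test, TMM scaling, filterByExpr, limma 3.58.1, R 4.3.3), with Benjamini-Hochberg adjustment over 16510 genes and a threshold of 0.05. The common biological coefficient of variation was 5.96%, with 10 residual degrees of freedom. The SE is the log2 fold change divided by the square root of F. CPM are the deposited counts scaled to the TMM-adjusted library size. A fold against a group at 0 uses a floor of 3 counts over that group; intervals (95%) and floors cover counting error only. The code was tested on simulated data.

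Genes named with values are those gained or lost, called members with a mean of at least 1 CPM, members at 5 CPM or more, neighbours within 250 kb, and up to 3 per list and comparison; genes outside this rule were chosen after their values were seen. The members and lists were chosen with earlier results of these data known. Coordinates are from GENCODE M21 (GRCm38). Alternatives were RLE and total-count scaling, no filter, DESeq2 1.42.0, only the groups compared, a replicate block and leaving out each library. Deviations of same-numbered libraries correlated at 0.120, 0.189 and 0.116 between APCCM day 4 and day 2. Every such pair lay above 0.1, and the numbers were treated as pairing the libraries there. In each other conditioned medium comparison at least 1 pair lay below 0.1. A different-numbered APCCM pair (day 2 replicate 3 and day 4 replicate 1) reached 0.117, so this rule cannot show that the numbers mark pairs. The design text of the series differs from the library labels, which were followed. The values of 1 member are not reported here.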

Additional observations from a re-analysis of the deposited data

Results flagged for a closer look

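The untreated mutant over WT difference and the APCCM over WTCM difference on day 2 differed by the interaction test (edgeR, adjusted p under 0.05) for 18 of 32 members, where 53.1% of all genes were called. On the log2 scale this difference of differences was 7 for Dlx4, 6.53 for Tbx2, 6.25 for Irx5, 5.31 for Foxc1, 4.34 for Six4, 3.25 for Foxd2, 2.20 for Foxo6, 2.03 for Tbx3, 1.35 for Six5, 1.11 for Foxa1, 0.959 for Foxa3, 0.714 for Foxj2, 0.497 for Foxm1 and 0.477 for Foxo3. It was -0.988 for Foxn2, -0.836 for Foxq1, -0.568 for Foxa2 and -0.472 for Foxo1. The values of Dlx4, Tbx2, Irx5 and Foxd2 rest on 1 to 3 counts in untreated WT and are no bound on a fold, and Foxd2 (9 counts in the untreated mutant, 1 in untreated WT) was not called between these groups (adjusted p = 0.083). The interaction call of Foxd2 was lost in 5 of the 10 fits without 1 library, and with DESeq2 and the replicate block. The Irx5 call was lost without WTCM day 2 replicate 1 (3.20, adjusted p = 0.91), that of Dlx4 without WTCM day 2 replicate 3 (adjusted p = 0.091), that of Foxa2 without untreated WT replicate 4 (adjusted p = 0.086), and that of Foxo6 without mutant replicate 5 (adjusted p = 0.16) or WT replicate 5 (adjusted p = 0.061).

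The APCCM over WTCM difference of Foxq1 differed between day 4 and day 2 by -0.534 on the log2 scale.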

How the results depend on the processing

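The member counts between untreated mutant and WT were 17 to 19 higher and 4 to 5 lower when any 1 library was left out, against 21 and 5 with all libraries. The calls lost were among Foxc2, Foxj1, Foxj3, Foxo6, Foxp4, Irx3 and Tbx6, and the 8 gained members kept theirs in each of these fits, where the lone library of a group is assumed to vary like the other groups. Foxp4 ranged from -0.5415 (without mutant replicate 5) to 0.0008426 (without WT replicate 4) and lost its call under total-count scaling (adjusted p = 0.46), DESeq2 (0.15), a fit of only the groups compared (0.17) and the replicate block (0.082). Foxj3 lost its call in a fit of only the groups compared (0.11). Foxc2, Foxj1, Irx3 and Tbx6 lost theirs in that fit and with DESeq2. Foxj1 also lost its call with the replicate block, and Irx3 without a filter on low counts. For APCCM over WTCM on day 2, 1 member was higher under total-count scaling and 1 without a filter, and lower members numbered 3 with RLE scaling, 2 with total-count scaling, 3 with DESeq2 and 3 with the replicate block. Leaving out 1 library gave 0 to 1 higher and 1 to 4 lower members on day 2, and 0 to 1 higher and 1 to 5 lower on day 4. For day 4 over day 2, WTCM had 3 higher members under total-count scaling and 3 without a filter; leaving out 1 library gave 2 to 4 there and 1 to 3 in APCCM. The label by day count was 0 with the replicate block (Foxq1 adjusted p = 0.055) and 0 to 1 without 1 library. The cause was not tested.

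Total-count scaling, chosen after seeing the data, shifted the median of all genes by 0.168 (log2) between untreated mutant and WT, and the split of calls was 6553 higher and 3900 lower, against 5348 and 4971 with TMM. Under it Foxk1, Foxk2 and Foxo4 were called higher. The same splits were 1671 and 918 against 1410 and 1345 for APCCM over WTCM on day 2, 1744 and 928 against 1293 and 1287 on day 4, and 1616 and 2345 against 2059 and 1921 for WTCM day 4 over day 2, and 5308 and 3532 against 4360 and 4404 for the label by medium interaction.

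With the replicate block, no member call was lost for APCCM day 4 over day 2, where the numbers met the correlation rule. The rule was not met in the other comparisons, and the block is given there as values only. The untreated libraries correlated at -0.58; with their numbers crossed in the block, an alternative also chosen after seeing the data, 5464 genes were higher and 5100 lower in the untreated mutant. Dlx3, Tbx20 and Foxc2 could not be tested for the label by medium interaction with edgeR, as the conditioned medium groups on day 2 were at 0, while DESeq2 called Dlx3 (10.03, adjusted p = 3.2e-05) and Tbx20 (7.079, adjusted p = 0.01). Depth limits the untreated groups, where 3 counts correspond to 0.0975 CPM in the mutant and 0.140 CPM in WT.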
